A study of Mus musculus with 14 samples.

Results

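Voltage-gated sodium channels open when the membrane depolarizes and carry the inward current of the action potential. Each channel has a large alpha subunit, which forms the pore and senses voltage, and smaller beta subunits, single-pass membrane proteins with an immunoglobulin fold that alter gating and attach the channel to other proteins. In retinal ganglion cells (RGCs), the output neurons of the retina, these channels are concentrated at the axon initial segment and, behind the eye, at the nodes of the optic nerve.

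The genes described here are 8 sodium channel subunit genes, 5 for alpha-type subunits (Scn1a, Scn2a, Scn3a, Scn7a and Scn8a) and 3 for beta subunits (Scn2b, Scn3b and Scn4b). They were taken by name, with every probe set that the array's annotation gives to that gene alone, which came to 8 of 18193 genes and 23 of 45037 probe sets tested. Their signals were read in 14 single RGCs, each on its own array, and all cells formed 1 group with no control group beside it. The cells came from adult double heterozygotes of the Pvalb tm1(cre)Arbr (PV-Cre) driver and the Ai9 reporter. The labels give 129P2/OlaHsd for the driver and C57BL/6 and 129 SV for the reporter, and the methods give a segregating C57BL/6;129P2OlaHsd background for the driver and C57BL/6J for the reporter, so the strain background was mixed. Red cells were drawn into a glass pipette after papain digestion of the retina, and libraries were kept when a PCR screen found Sncg and found neither rhodopsin nor glutamine synthetase. In this cross Cre is made under the parvalbumin gene and tdTomato stays on afterwards, so the red label marks a cell that made Cre at some time. No source names the animal behind a cell, so the spread below is between cells, and a share of cells is not a share of animals.

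The label of the cells was set against marker genes. Of 13 RGC markers measured, 9 to 13 were detected per cell, and 8 were detected in all 14 cells. Rod markers numbered 11 of 13 in cell 3, 9 of 13 in cell 6 and 1 to 3 of 13 in the other cells. Müller glia markers numbered 7 of 13 in cell 6 and 0 to 5 of 13 elsewhere. Of 10 endothelium and pericyte markers, 0 to 2 were detected per cell, with Cldn5 (7992) and Kdr (2152) in cell 6 alone. Any part of RNA from other cell types in the signals given below was not tested. Glul, the gene of glutamine synthetase that the PCR screen was meant to find absent, was detected on the arrays of 8 of 14 cells, cells 1, 2, 3, 4, 6, 7, 9 and 12, between 416.7 and 15865. The number of probe sets detected per cell lay between 4191 in cell 5 and 11910 in cell 12 (mean 7897 ± 2464, SD, n = 14). Here a probe set, a group of probes against 1 transcript, was detected when its signal reached 8 times the median signal of that array, a threshold of 64.2 in cell 14 up to 439.7 in cell 1. Signals are arbitrary units of probe brightness on a linear scale. Every array was scaled to a trimmed mean of 500.0, so a signal is relative to the rest of its array. Whether this scaling moved the ranks of cells given below, between arrays with few and with many detected probe sets, was not tested. Signals were compared between cells for a given probe set, and not between genes, since each probe set has its own response. Numbers of cells with detection were set side by side between genes at 1 common threshold. They therefore also depend on that response and on which probe sets a gene has.

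Scn8a, Scn2b, Scn2a and Scn3b were found in most of the cells, Scn3a, Scn1a and Scn7a in some, and Scn4b in a single cell near the threshold. Each gene was represented by its probe set of highest mean log2 signal. Scn8a was detected in 13 of 14 cells, or 92.9% (95% exact binomial interval 66.1 to 99.8%). Scn2b was detected in 12 cells (85.7%, 57.2 to 98.2%), and Scn2a and Scn3b in 10 cells each (71.4%, 41.9 to 91.6%). Scn3a followed with 7 cells (50%, 23 to 77%), Scn1a with 5 cells (35.7%, 12.8 to 64.9%), Scn7a with 4 cells (28.6%, 8.4 to 58.1%) and Scn4b with 1 cell (7.1%, 0.2 to 33.9%). These intervals cover counting error only, and those of neighbours in this order overlap. All 8 genes were thus found in 1 cell or more, where 58.2% of all 18193 genes were, and 5 of 8 were found in at least 7 cells, where 24.8% of all genes were. The median was 8.5 cells for the 8 genes and 1.0 cell for all genes. The genes were chosen by name from a family known in neurons, so these figures describe them and test nothing.

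**Figure D1:**
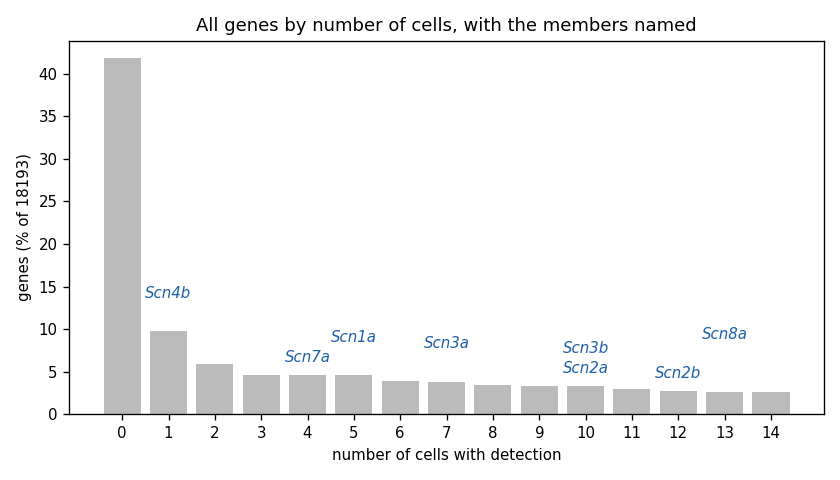
Number of cells with detection (horizontal axis, 0 to 14) for all 18193 genes, as a percentage of genes (vertical axis, grey bars). The 8 sodium channel subunit genes are written above the bar of their own number of cells, and the height of a name has no meaning. Scn8a stands at 13 cells and Scn4b at 1, and 41.8% of all genes were found nowhere.

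Promoter sequences are shown for 3 of the genes because Scn2b and Scn4b are neighbours on the same strand and stood at 12 cells and 1 cell, while Scn8a was the member found in most cells. Each run is 300 bases from RefSeq (GRCm38.p6), from 250 bases before to 50 bases after an annotated transcript start, 5′ to 3′ on the gene's strand. Capitals mark the dinucleotide CG. Scn2b lies at chr9:45117626-45117925, Scn4b at chr9:45138374-45138673 and the more upstream start of Scn8a at chr15:100870395-100870694, all on the plus strand.
Scn2b: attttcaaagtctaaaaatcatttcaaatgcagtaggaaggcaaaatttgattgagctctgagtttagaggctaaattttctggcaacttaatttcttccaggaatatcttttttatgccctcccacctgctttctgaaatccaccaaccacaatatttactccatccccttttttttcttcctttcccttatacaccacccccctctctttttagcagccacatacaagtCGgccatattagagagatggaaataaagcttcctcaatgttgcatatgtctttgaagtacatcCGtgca
Scn4b: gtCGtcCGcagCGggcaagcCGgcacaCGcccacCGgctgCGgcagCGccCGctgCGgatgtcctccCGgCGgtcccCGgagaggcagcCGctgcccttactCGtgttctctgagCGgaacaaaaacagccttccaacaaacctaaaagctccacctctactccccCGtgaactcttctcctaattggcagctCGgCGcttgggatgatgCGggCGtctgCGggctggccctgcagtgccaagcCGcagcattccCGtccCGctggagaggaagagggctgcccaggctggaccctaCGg
Scn8a: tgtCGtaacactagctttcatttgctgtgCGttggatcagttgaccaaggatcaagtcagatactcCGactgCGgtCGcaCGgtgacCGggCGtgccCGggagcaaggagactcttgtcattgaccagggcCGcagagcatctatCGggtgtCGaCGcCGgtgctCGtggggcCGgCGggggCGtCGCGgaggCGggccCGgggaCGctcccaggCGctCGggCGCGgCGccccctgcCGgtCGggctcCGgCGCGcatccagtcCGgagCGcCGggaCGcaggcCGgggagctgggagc
CG occurred 2 times in the Scn2b window, 26 times in the Scn4b window and 38 times in the Scn8a window, at a GC content of 38.3%, 66.3% and 70.0%. The median of all 32851 windows in the table was 7 CG, with quartiles of 3 and 20. The member found in 12 cells thus had fewer CG than the lower quartile and its neighbour found in 1 cell more than the upper one. The second Scn8a window had 12 CG, the windows of Scn2a had 3 and 9, that of Scn1a had 5 and that of Scn7a had 3. The letters TATAAA, searched on both strands, occurred in 1 of the 8 windows of these 6 genes (Scn2a) and in 13.6% of all windows. These are counts of letters and say nothing of how a promoter was used in these cells. Scn3a and Scn3b are named only.

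In the gene table of that build, 5 of the family's alpha genes lie together on chromosome 2, in the order Scn3a, Scn2a, Scn1a, Scn9a and Scn7a. Scn2b and Scn4b are adjacent on chromosome 9, Scn3b lies elsewhere on chromosome 9 between Zfp202 and Gramd1b, and Scn8a lies on chromosome 15.

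Scn8a encodes the alpha subunit that dominates the initial segment and nodes of mature myelinated axons. Its signal was 18.4 in the lowest cell, 6867 at the median and 30108 in the highest cell. Among the 13 cells with detection the lowest was 2955, in cell 1. Cells 3, 14 and 11 were highest, with 30108, 28918 and 23566, and cell 5, which also had the fewest probe sets detected, was the only cell below its threshold. Cells 3, 14 and 11 had 6237, 5828 and 7112 probe sets detected, below the median of 7455 over the 14 cells. A further Scn8a probe set, 1457412_at, was also detected in 13 cells, between 1472 and 23600. It was at 23600 in cell 5 and at 8.73 in cell 13, whereas the chosen probe set was at 18.4 in cell 5 and at 4416 in cell 13. Each of the 14 cells therefore had a Scn8a signal by at least 1 probe set, and cells 5 and 13 had it by 1 probe set each. Probe set 1451894_a_at was detected in 8 cells, between 175.4 and 5381, and 2 others were detected in none, with highest signals of 20.0 and 57.3.

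Scn2a encodes an alpha subunit known from unmyelinated axons and, in developing neurons, from the initial segment. The chosen probe set gave 0.636 in the lowest cell, 2080 at the median and 28145 in the highest. Cells 1 and 3 stood highest, at 28145 and 27236, and cell 10 followed at 12020. The remaining 7 cells with detection lay between 769.4 in cell 9 and 7722 in cell 6. The 4 cells without detection, cells 5, 11, 13 and 14, were at 1.15, 14.3, 7.23 and 0.636, far below their thresholds. In cell 11 another probe set, 1427280_at, read 1025, so by any probe set Scn2a was found in 11 cells. The same probe set was at 3.17 and 44.7 in cells 1 and 3, the highest cells of the chosen one.

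Scn1a encodes the alpha subunit that fast-spiking parvalbumin interneurons of the cortex are known to use. Its chosen probe set gave 6.41 in the lowest cell, 86.8 at the median and 9237 in the highest. The 5 cells with detection were at 9237 (cell 8), 6041 (cell 9), 2593 (cell 12), 2278 (cell 7) and 1974 (cell 4), and the other 9 lay between 6.41 and 176.4, so that no value fell between 176.4 and 1974. A further probe set, 1450121_at, was detected in these same 5 cells and in cells 1, 2, 3 and 6. There it read 7083, 1557, 211.6 and 121.5, whereas the chosen probe set read 85.7, 78.6, 44.6 and 88.0. The probe set 1441728_at was detected in 4 cells, cells 4, 7, 9 and 12, between 86.8 and 2430. Scn1a thus stood at 4, 5 or 9 cells depending on the probe set.

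Scn3a encodes an alpha subunit that in rodent brain is known mainly from embryonic and early postnatal stages. Its signal was 1.08 in the lowest of these adult cells, 143.0 at the median and 12618 in the highest. Cells 8 and 6 were high, at 12618 and 8370, cells 4 and 2 were at 1262 and 1116, and cells 12, 9 and 7 were at 445.7, 330.6 and 220.5. The 7 cells without detection lay between 1.08 and 65.5. Cells 7 and 9 were less than 2 times their thresholds of 124.8 and 168.0, whereas cells 8 and 6 were far above theirs. The other Scn3a probe set was detected in no cell, with a highest signal of 87.0, so each Scn3a detection rests on 1 probe set.

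Scn7a encodes a divergent alpha-type protein that is known as a sensor of extracellular sodium in glia and in some neurons, and not as a source of action potentials. It was detected in 4 cells, at 13841 in cell 14, 4140 in cell 7, 3911 in cell 2 and 1966 in cell 4. The other 10 cells lay between 0.693 and 116.2, with a median over all cells of 19.2. Probe set 1436043_at was detected in cells 2, 4 and 7, at 823.6, 643.6 and 1700, and was at 26.8 in cell 14. Signals in cells 2, 4 and 7 were thus seen by more than 1 probe set, and the highest signal of all, in cell 14, by 1. Because this gene is known from glia, glial markers were read in the same cells. In cells 2, 4, 7 and 14 the Müller glia markers detected were 2, 5, 4 and 1 of 13. Clu was detected in all 4 of these cells, Glul in cells 2, 4 and 7, Rlbp1 in cells 4 and 7, Vim and Dkk3 in cell 4 and Car2 in cell 7. The other 7 markers, Aqp4, Apoe and Sox9 among them, were detected in none of these cells. Over all 14 cells, Clu was detected in 12, Glul in 8, Dkk3 in 7, Car2 in 6, Rlbp1 in 4 and Vim in 1, so most were also found without Scn7a. In cells 2, 4, 7 and 14 the astrocyte markers detected were 0, 0, 1 and 0 of 3, with Gfap detected in none of the 14 cells. The oligodendrocyte markers detected were 0, 0, 1 and 1 of 5, with Mbp the one in cells 7 and 14. Mbp was also detected in cells 3, 6, 8, 9 and 12, which were without Scn7a. In the other cells the Müller glia count was between 0 and 7 and the astrocyte and oligodendrocyte counts each between 0 and 1. Any part of glial RNA in the Scn7a signal was not tested.

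**Figure D2:**
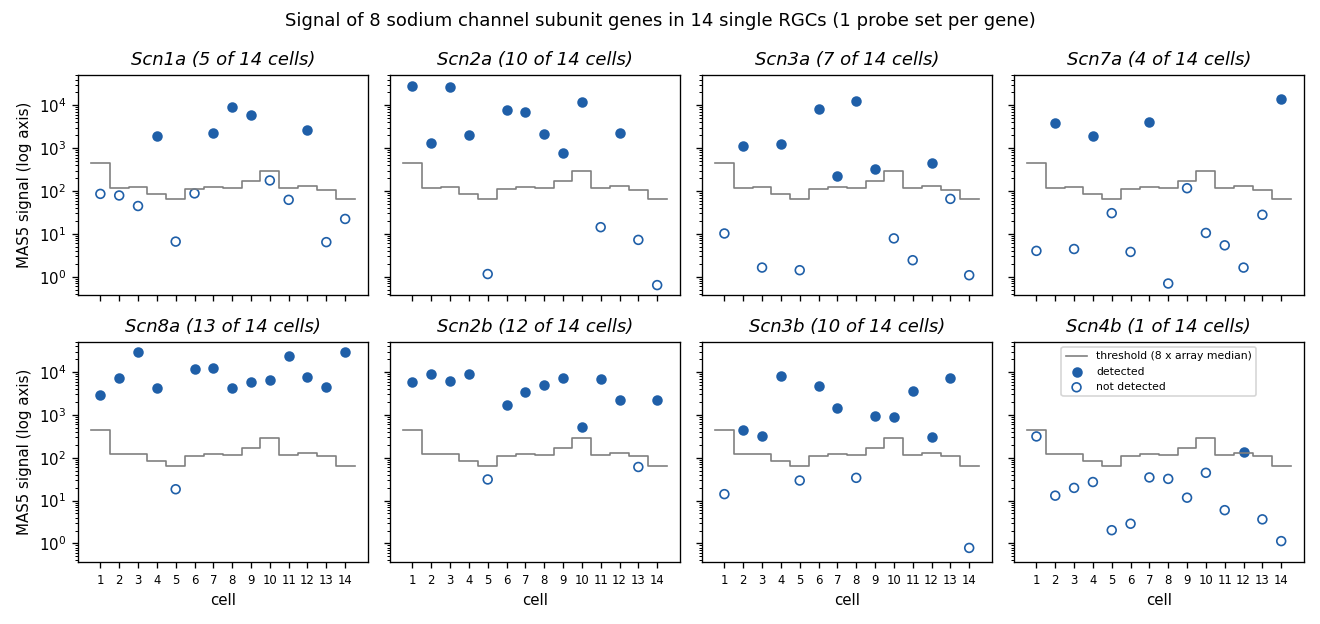
Signal of the chosen probe set of each of the 8 genes (vertical axis, arbitrary units, log axis) in cells 1 to 14 (horizontal axis). Filled points reached the threshold of 8 times the array median (grey line) and open points did not. Scn8a and Scn2b lie far above the line in most cells, Scn1a and Scn7a fall into cells at or above 1966 and cells at or below 176.4, and the only filled Scn4b point (cell 12, 136.5) lies at the line.

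Scn2b encodes a beta subunit that is joined to the alpha subunit by a disulphide bond. Its signal was 31.1 in the lowest cell, 4284 at the median and 9209 in the highest. Cells 2 and 4 stood highest, at 9209 and 9193, and the 12 cells with detection reached down to 523 in cell 10. Cells 5 and 13, the cells with the fewest probe sets detected, were at 31.1 and 60.9, below thresholds of 65.3 and 108.3. Probe set 1430648_at was detected in 10 of the 12 cells, between 736.6 and 10415, and was at 260.1 in cell 10 and 6.87 in cell 14. Scn2b was thus seen by at least 2 probe sets in 10 cells, and Scn8a in 12. A further probe set was detected in none, with a highest signal of 148.0.

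Scn3b encodes a beta subunit that associates with the alpha subunit without a covalent bond. Its signal was 0.786 in the lowest cell, 676.7 at the median and 7929 in the highest. Cells 4 and 13 stood highest, at 7929 and 7365, followed by cell 6 at 4621 and cell 11 at 3694. Cells 12 and 3 were lowest among the 10 with detection, at 303.8 and 319.6, and cells 1, 5, 8 and 14 were without detection, between 0.786 and 34.0. Cell 13 had 2 members detected, Scn8a and Scn3b, so that Scn3b was its only beta subunit. Probe set 1426328_a_at was detected in cells 2 and 4, at 518.6 and 1453, and in no other cell.

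Scn4b encodes the beta subunit linked to resurgent sodium current, the brief current on repolarization that helps some neurons to fire fast. Its only probe set reached the threshold in cell 12, at 136.5 against a threshold of 130. The highest signal of all was 314.4 in cell 1, whose threshold was 439.7, and the other 12 cells lay between 1.13 and 44.5. No further probe set was measured for it, so beyond this marginal call Scn4b was not detectable at this sensitivity.

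Among all 23 probe sets of the 8 genes, 18 passed in 1 cell or more and 5 passed nowhere. The chosen probe sets gave 62 detections among 112 pairs of gene and cell. Of these 62, 40 were also seen by another probe set of the gene, and in 6 of the 50 pairs without detection a different probe set of the gene passed. Those 6 were Scn8a in cell 5, Scn2a in cell 11 and Scn1a in cells 1, 2, 3 and 6. Where on the transcripts the probes of each set lie was not used here. The RNA was primed at the poly(A) tail and amplified by PCR, and Gapdh signal at the 3′ end was 1.09 (cell 4) to 2.61 (cell 14) times that at the 5′ end.

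**Figure D3:**
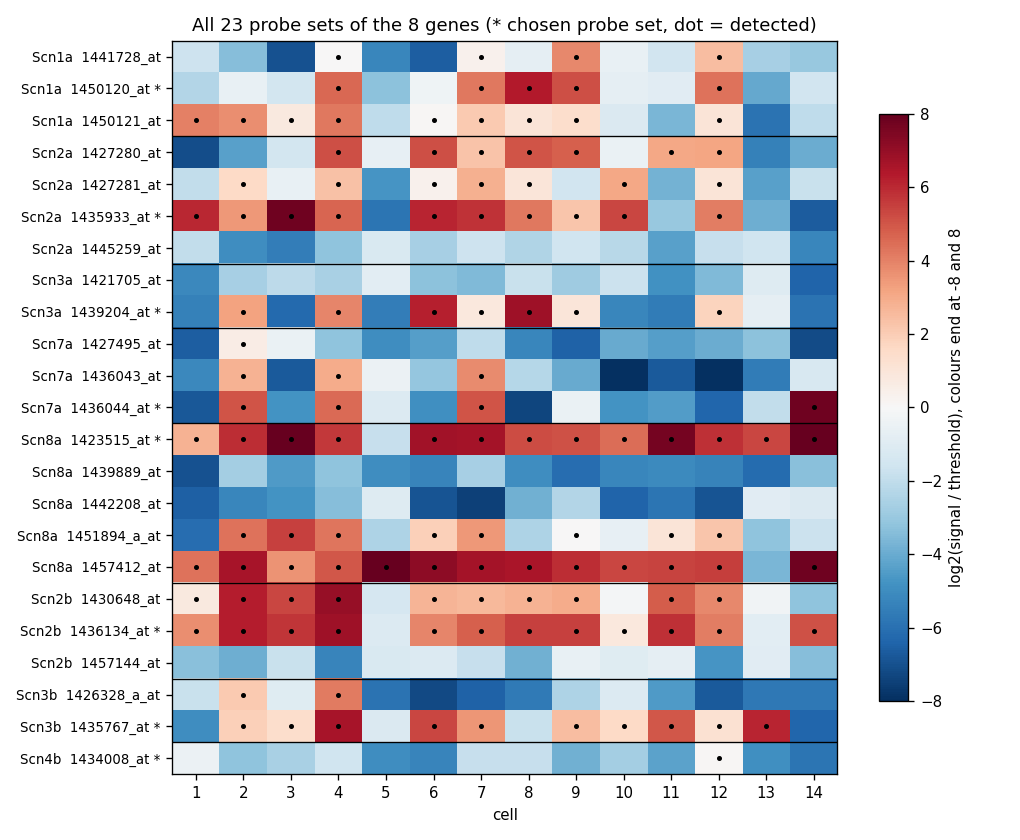
All 23 probe sets (rows, with the chosen probe set of each gene starred) in cells 1 to 14 (columns). Colour is log2 of signal over that array's threshold, ending at -8 and 8, and a dot marks a detection. The 2 Scn8a rows with 13 dots part only in cells 5 and 13, the Scn1a rows part in cells 1, 2, 3, 6 and 8, and 5 rows hold no dot.

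The members detected in a cell numbered 0 in cell 5, 2 in cell 13, 3 in cells 1, 11 and 14, 4 in cells 3 and 10, 5 in cells 6 and 8, 6 in cells 2 and 9, and 7 in cells 4, 7 and 12. The mean was 4.43 ± 2.10 of 8 (SD, n = 14), made of 2.79 ± 1.58 alpha-type and 1.64 ± 0.74 beta subunit genes. By any probe set it was 4.86, and cell 5 then had 1 member, Scn8a. This number followed how much was detected in the cell as a whole, with Pearson's r = 0.91 and Spearman's rho = 0.91 against probe sets detected (n = 14 cells, a description over points that share their array and its depth). It had r = -0.40 and rho = -0.54 with the Gapdh ratio and r = -0.03 and rho = -0.11 with the number of rod markers. A cell with few members therefore cannot be told apart from a cell whose library held less RNA.

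**Figure D4:**
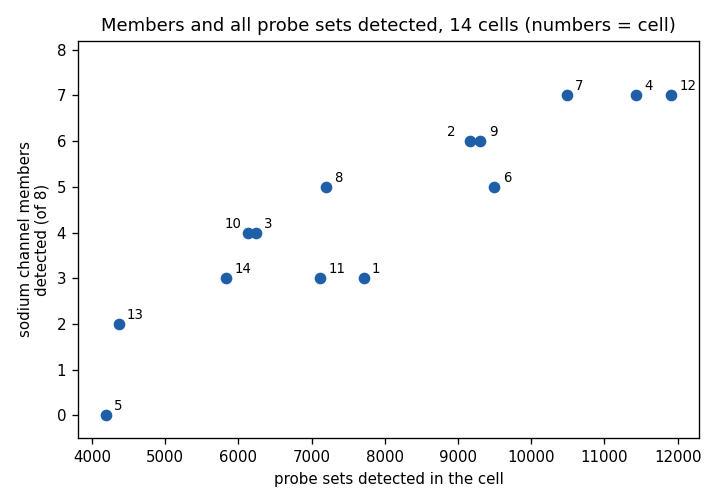
Sodium channel members detected (vertical axis, of 8) against all probe sets detected (horizontal axis) in the 14 cells, 1 point per cell, with the cell's number beside it. Cells 5 and 13 lie at the lower left with 0 and 2 members, and cells 4, 7 and 12 at the upper right with 7.

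The cells with each member were largely nested. The 5 cells with Scn1a were all among the 7 with Scn3a, those among the 10 with Scn2a, those among the 12 with Scn2b and those among the 13 with Scn8a, with 0 exceptions in 34 memberships. Scn7a and Scn3b did not fall into this order and, with Scn4b, were left out of it. The 0 exceptions therefore describe the 5 genes chosen and test nothing. By the chosen probe sets, Scn7a was found in cell 14 without Scn2a, and Scn3b was found in cells 11 and 13 without Scn2a. In cell 11 another Scn2a probe set, 1427280_at, was detected. Depth moves with the order: the 7 cells with Scn3a were the 6 cells with the most probe sets detected and cell 8. Among all genes detected in 5 cells, 12% (100 of 836) had all of these cells among the 7 with Scn3a, and among all genes detected in 7 cells, 26.9% (187 of 696) had them all among the 10 with Scn2a. No such share was taken for the steps to Scn2b and Scn8a. Scn2b was missing only in cells 5 and 13, those with the fewest probe sets detected, and Scn8a only in cell 5. The order was sensitive to the threshold, with 2 exceptions of 40 at 4 times the median, 3 of 31 at 16 times, 4 of 29 at a signal of 1000 and 4 of 35 after quantile normalization. By any probe set there were 0 exceptions of 39, but Scn3a and Scn1a then changed places, with 7 and 9 cells. They also changed places at 4 times the median (8 and 9 cells), at a signal of 1000 (4 and 5), with the threshold from control probe sets (7 and 8), with the mean over a gene's probe sets (4 and 6) and with at least 2 probe sets (0 and 5). With that mean there were 5 exceptions of 28.

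**Figure D5:**
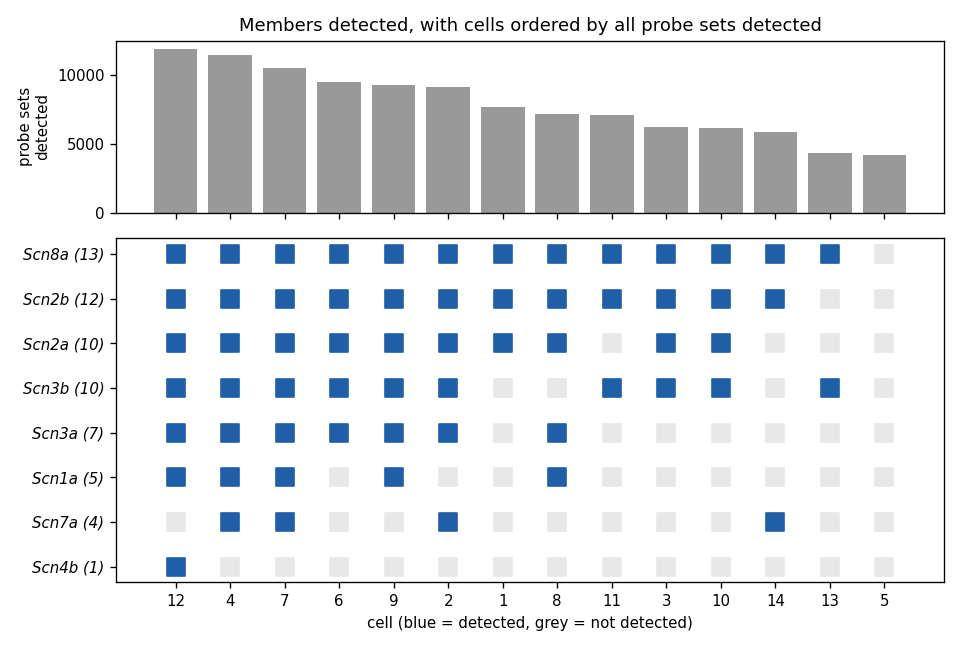
Upper panel, all probe sets detected in each cell (vertical axis), with the cells ordered from 12 (11910) to 5 (4191). Lower panel, the 8 genes (rows, with their number of cells) in the same cells, blue where detected and grey where not. Blue squares thin out towards the right, the 5 Scn1a cells lie within the 7 Scn3a cells, and Scn7a in cell 14 and Scn3b in cell 13 stand outside that order.

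How the members varied together was described by correlation over the 14 cells on log2(signal + 32), where every point shares the depth of its array. Of the 28 pairs, 3 had r of at least 0.5, 20 lay between -0.3 and 0.3, and 6 were below 0, with a median of 0.22. The 3 were Scn8a with Scn2b (r = 0.61, rho = 0.11), Scn2a with Scn4b (r = 0.60, rho = 0.74) and Scn1a with Scn3a (r = 0.58, rho = 0.69). The first rests on the shallow cells: without cells 5 and 13 it was -0.11. Nearly all Scn4b values lay under the threshold, so its correlation is one of background values. The lowest was Scn3b with Scn4b, at -0.32. Leaving out cells 5 and 13 also moved Scn8a to -0.53 with Scn1a (0.10 over all 14 cells), -0.41 with Scn2a (0.27), -0.43 with Scn3a (0.07) and -0.59 with Scn4b (-0.02), and Scn2a to -0.15 with Scn2b (0.46). Any part of the array scaling in these correlations was not tested.

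Genes with the most similar pattern were sought among 6403 genes detected in 4 to 13 cells, on the same scale and cells. For Scn8a they were Aff4 (r = 0.907, rho = 0.666), Rab11b (0.898, rho = 0.569) and Capns1 (0.897, rho = 0.609), each without detection in cell 5 as Scn8a was, so that these values share the shallow cell. For Scn2b they were Smim13 (0.928, rho = 0.741), Timm13 (0.924, rho = 0.604) and Khnyn (0.920, rho = 0.807). Smim13 and Timm13 were detected in the same 12 cells as Scn2b and Khnyn in 11 of them. All were thus without detection in the shallow cells 5 and 13. For Scn2a they were Dpysl2 (0.929, rho = 0.807), Hnrnph1 (0.921, rho = 0.837) and Ssr3 (0.918, rho = 0.675), each detected in the same 10 cells as Scn2a. These 3 genes were thus also without detection in cells 5, 13 and 14, which had the fewest probe sets detected (4191, 4362 and 5828). Scn1a was nearest to Phc2 (0.919, rho = 0.785), Ogfod1 (0.903, rho = 0.741) and Mrps5 (0.899, rho = 0.793). Scn3a was nearest to Ddx39a (0.915, rho = 0.811), Rprd2 (0.905, rho = 0.785) and Gnl2 (0.903, rho = 0.912). Scn7a was nearest to Usp3 (0.909, rho = 0.771), Coa7 (0.905, rho = 0.635) and Tmem186 (0.899, rho = 0.771). Scn3b had no gene as close by r, with Ilrun (0.831, rho = 0.916), Caly (0.822, rho = 0.727) and Shisa5 (0.819, rho = 0.732). No other member was among these nearest genes. Over all these genes the median r with a member lay between 0.05 and 0.27 and the 99th percentile between 0.64 and 0.83.

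Scn9a, Scn10a and Scn11a, alpha genes that are known from sensory neurons of the dorsal root ganglia, were detected in 0 of 14 cells by their chosen probe sets (exact upper limit 23.2% each). Their highest signals were 118.1, 80.9 and 134.8. Scn9a did reach the threshold of 83.2 in cell 4 by the probe sets 1442809_at (101.3) and 1442810_x_at (219.0).

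Genes for proteins that anchor or modify sodium channels, together with the sodium leak channel genes Nalcn and Unc80, were read as a list of 23 genes, of which 20 were measured. Of these, 14 were found in at least 7 cells, 5 in 1 to 6 cells and 1, the phosphatase gene Ptprz1, in none, with a median of 8.5 cells. Among all 18193 genes, 24.8% were found in at least 7 cells and 41.8% in none, with a median of 1.0 cell. The list was chosen by name, so these counts describe it and test nothing. Ank3, whose product ankyrin-G holds the channels at the initial segment, was found in all 14 cells, between 4556 and 27634. Sptbn4, for the spectrin bound to it, was found in 11 cells, between 141.8 and 6711, and the adhesion molecules of initial segment and node Nfasc and Nrcam in 12 and 13 cells. The intracellular fibroblast growth factor homologues, which bind the channel's tail, differed in their number of cells: Fgf12 was found in 14 cells (2755 to 44503), Fgf11 in 12, Fgf13 in 8 (1460 to 28588) and Fgf14 in 2, cells 8 and 10. Ank3 and Fgf12 were thus found also in cell 5, which had no member by the chosen probe sets. The contactins Cntn1 and Cntn2 were found in 13 and 6 cells and Tnr, an extracellular partner of the beta subunits, in 9. Among enzymes that act on the channels, the kinase genes Prkaca and Fyn were found in 12 and 8 cells, the ubiquitin ligase genes Nedd4 and Nedd4l in 11 and 3, and Bace1, a protease that cleaves beta subunits, in 8. The partners detected per cell lay between 5 in cell 13 and 16 in cells 4 and 12 (mean 12.2 ± 3.31, SD, n = 14). This number, too, followed depth, with r = 0.86 and rho = 0.87 against probe sets detected, and it had r = 0.88 and rho = 0.90 with the number of members (n = 14 each, points that share their array).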

How the data were processed

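Single tdTomato+ RGCs were measured on 1 array each, after oligo-dT priming and 35 cycles of PCR. The authors deposited a linear MAS5 intensity for each probe set, with every array scaled to a trimmed mean of 500.0. The MAS5 version was not given in the sources used here. The array's annotation gave 34945 of 45037 probe sets 1 gene, 932 several and 9160 none here; 64 control probe sets were left out. Symbols were updated by gene number through a GRCm38.p6 gene table, which 34741 matched. None of 378 values of 27 control probe sets of other organisms reached the detection threshold of 8 times the array median.

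Signals were used as deposited. Each gene was read by its probe set of highest mean log2 signal. Shares of cells carry exact binomial 95% intervals, and correlations used log2(signal + 32). With 1 group no test was made. Code was tested on simulated data, in Python 3.11.15 with numpy 2.4.6, pandas 2.3.3 and scipy 1.17.1. Alternatives were other thresholds, probe set rules, pseudocounts, quantile normalization and cells left out. Named genes were the members, the other subunit genes, channel partners, and the 3 genes of highest r per member found in 4 to 13 cells. The members and lists were chosen with earlier results of these data known.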

Additional observations from a re-analysis of the deposited data

How the results depend on the processing

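Of 88 alternative values for the share of cells with a member, 79 lay within the exact interval of the value reported and 9 did not. That interval measures counting error over cells, not a change of processing in the same cells, so lying inside it does not show stability. Scn1a stayed inside it at 64.3% (9 cells), at 4 times the array median and by any probe set, against 35.7% (5 cells). Leaving out probe sets with the suffix _x_at could move no share, since no member has one. For Scn4b the share was 0.0% at 16 times the array median, at a signal of 1000 and where at least 2 probe sets had to be detected (it has 1), and 14.3% at 4 times the median and 21.4% with the threshold from control probe sets, both inside the wide interval. For Scn3b it was 35.7% at a signal of 1000 and 14.3% with at least 2 probe sets, and for Scn3a 0.0% with at least 2. For Scn8a it was 100% by any probe set and without cells 5 and 13 (missing in cell 5), and for Scn2b 100% without these cells (missing in both). The rule of at least 2 probe sets was chosen after seeing the data. The mean number of members per cell moved by less than its SD in 11 of 11 alternatives, between 2.86 (at least 2 probe sets) and 5 (4 times the median, or without cells 5 and 13). Of 112 alternative correlations between members 107 stayed within the 95% Fisher interval of r over 14 cells and 5 did not, all 5 without cells 5 and 13. That interval is wide: Scn3a with Scn8a stayed inside it at -0.43 without these cells, against 0.07 with them. Leaving out cells 3 and 6, with the most rod markers, moved no share beyond its interval.

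No paired analysis was possible because all cells belong to 1 group. An oligo-dT primed, amplified single-cell library leaves low transcripts to chance, so a gene not detected may still be expressed. With 14 cells the intervals are wide.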

Other observations

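The sodium leak channel, which is related to the voltage-gated channels in structure and sets resting excitability, was read through 2 genes that are also counted in the list of partners above. Nalcn, for its pore, was detected in 7 of 14 cells, and Unc80, for a protein of the same complex, in 6 of 14. Both were detected together in cells 4 and 7, an overlap that was not set against that of other pairs of genes. How these numbers relate to depth was not tested.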
